A study of Arabidopsis thaliana with 6 samples.

Results

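Anthocyanins are the red and purple flavonoid pigments of plant vacuoles, and in Arabidopsis rosette leaves they accumulate under sugar excess, strong light and nutrient shortage. Dihydroflavonol reductase (DFR) diverts dihydroflavonols from the flavonol branch into the anthocyanin branch. The unstable pigment core is then stabilised by sugars and acyl groups, which glycosyltransferases and acyltransferases add. The 4 enzymes described here were the probe sets that the platform annotation assigns to a single gene, that gene being DFR (AT5G42800, probe set 249215_at), UF3GT (AT5G54060, also called UGT79B1, 248185_at), AT4G14090 (UGT75C1, 245624_at) or AT5MAT (AT3G29590, 256924_at). Each had 1 probe set, so they are 4 of the 13350 genes that had a probe set of their own on the array. DFR catalyses the reduction, UF3GT adds xylose to the glucose at the first glycosylated position of the pigment, AT4G14090 adds a glucose at another ring position, and AT5MAT attaches malonate to that last glucose.

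The tested line was pho3, taken from the Feldmann collection of T-DNA insertions in the Ws-2 background (3 arrays), and it was set against the accession Ws-2 itself (3 arrays). As background, the lesion of pho3 lies in SUC2, which exports sucrose from leaves by loading it into the phloem. SUC2 has no named probe set here, so the lesion was not checked. Both groups grew in a cabinet at 23 °C under a day of 16 h light and a night of 8 h, first on Murashige and Skoog medium holding 1% sucrose (10 days) and later on compost, until growth stage 6.0. For both, humidity was 60% and stratification lasted 3 days at 4 °C. No label states that the replicates were separate plants, so the p-values below cover only the spread between these arrays, which may be technical, and pho3 is a single line.

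The array labelled Ws-2 replicate 1 stood apart from the other Ws-2 arrays for all 4 enzymes, and directions follow the labels as given. The median signal lay between 40.4 and 44.2 on the 6 arrays and the 40th percentile, used here as the lower limit of reliable signal, between 26.2 and 28.4. The 5 leaf markers with a named probe set (LHCB4.1, RCA, PSAN, PRK and SBPASE) read between 955 and 3694 on every array. Their median log2 difference was -0.33, pho3 minus Ws-2, and all 5 had a lower mean in pho3. In limma's test 0 of 5 passed, as did 0 of all tested probe sets. All 5 were lowest within Ws-2 on replicate 1 and highest within pho3 on replicate 3. SBPASE read 955, 1110 and 1984 on pho3 replicates 1 to 3, against 1546, 2357 and 1992 on the Ws-2 arrays. Of markers for other cell types, FMA of guard cells read 40.9 to 63.7, and EXPA7 of root hairs was under the percentile on all arrays but Ws-2 replicate 2, where it read 38.0. The listed markers of flower, seed, phloem, xylem and trichome have no named probe set. In whole leaves, fewer cells of a type and less RNA per cell cannot be told apart.

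All 4 enzymes were bright on the pho3 arrays and on Ws-2 replicate 1, and dim on Ws-2 replicates 2 and 3. For 4 of 4 the array labelled Ws-2 replicate 1 read inside the range of the pho3 arrays with the other Ws-2 arrays below it, a pattern that 18.9% of the tested probe sets showed. With the labels as given, the groups overlapped for every enzyme: 0 of 4 had all pho3 arrays above all Ws-2 arrays, against 5.31% of the tested probe sets.

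**Figure D1:**
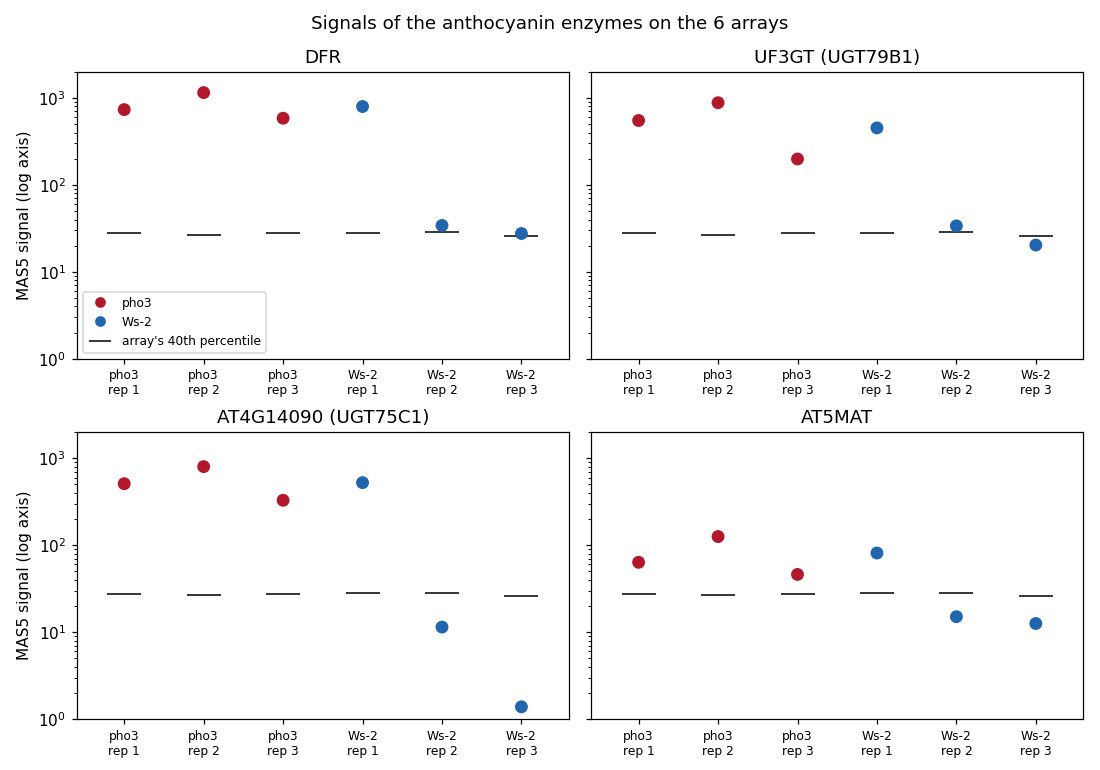
MAS5 signal (log axis) of each enzyme on the 3 pho3 arrays (red) and the 3 Ws-2 arrays (blue), with a black dash at each array's 40th percentile. The array labelled Ws-2 replicate 1 sits with the pho3 arrays in all 4 panels, and Ws-2 replicates 2 and 3 sit near or under the dash.

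DFR, the reduction step, read 736, 1155 and 586 in pho3 (replicates 1, 2 and 3), against 799, 34.2 and 27.6 in Ws-2 (likewise). It was the only one of the 4 enzymes at or above the 40th percentile on all 6 arrays, and Ws-2 replicates 2 and 3 lay just over it (28.4 and 26.2 on those arrays). The log2 difference, pho3 minus Ws-2, was 3.12 (SE 1.22, limma adjusted p = 0.375), an 8.70-fold ratio of geometric means. The spread of log2 signals was 0.50 within pho3 and 2.72 within Ws-2 (SD, n = 3 each), so the Ws-2 arrays differed from one another more than the pho3 arrays did.

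UF3GT, the xylosyltransferase, had 551, 883 and 199 on the pho3 arrays, against 453, 33.8 and 20.4 on the Ws-2 arrays. It averaged 544 ± 342 in pho3 and 169 ± 246 in Ws-2 (SD, n = 3 each). Its pho3 arrays were the most uneven of the 4 enzymes, with a log2 SD of 1.10, and pho3 replicate 3 read 0.28 times the mean of pho3 replicates 1 and 2. The log2 difference was 2.76 (SE 1.17, limma adjusted p = 0.375). One Ws-2 array lay under the 40th percentile, and with signals floored at that percentile the geometric mean of pho3 was at least 6.23-fold higher, which is a description and not a call.

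AT4G14090, the glucosyltransferase whose product AT5MAT modifies, had 510, 802 and 329 on the pho3 arrays, against 525, 11.4 and 1.38 on the Ws-2 arrays. It averaged 547 ± 239 in pho3 and 179 ± 299 in Ws-2 (SD, n = 3 each). The log2 difference of 4.66 (SE 1.94, limma adjusted p = 0.375) was the 6th highest of the 13983 tested probe sets. That size rests on dim values: 2 of the 3 Ws-2 arrays lay under the 40th percentile, and with the floor the ratio of geometric means was at least 7.01-fold.

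AT5MAT, the malonyltransferase that completes the side chain, had 63.6, 126 and 46.1 on the pho3 arrays, against 81.3, 15.0 and 12.6 on the Ws-2 arrays. It averaged 78.5 ± 41.8 in pho3 and 36.3 ± 39.0 in Ws-2 (SD, n = 3 each). Its pho3 arrays were all above the 40th percentile and 2 of its 3 Ws-2 arrays below it. The log2 difference was 1.53 (SE 0.74, limma adjusted p = 0.375), and with the floor the ratio of geometric means was at least 1.83-fold. Signals of different probe sets cannot be ordered against each other, so the dimness of AT5MAT says nothing of its transcript level relative to the other enzymes.

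None of the 4 enzymes passed limma's test over all 6 arrays, where the background was 0% of probe sets called higher. At an unadjusted p under 0.05, 2 of 4 (DFR at 0.0384 and AT4G14090 at 0.0475) were higher, against 5.77% of all tested, and UF3GT and AT5MAT had 0.0508 and 0.0793. The median log2 difference of the 4 was 2.94, against a median near 0 (-0.0015) over all tested probe sets. In that table DFR held the 46th, UF3GT the 68th and AT5MAT the 289th highest difference. These places rest in part on dim values: with all signals floored, DFR took place 10, AT4G14090 place 14, UF3GT place 16 and AT5MAT place 523. All 4 passed the filter on low values, with DFR at or above the percentile on 6 arrays, UF3GT on 5 and the other enzymes on 4. AT4G14090 and AT5MAT thus passed only through the arrays on which they were bright. All 4 also passed a filter on the mean of the 6 arrays.

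**Figure D2:**
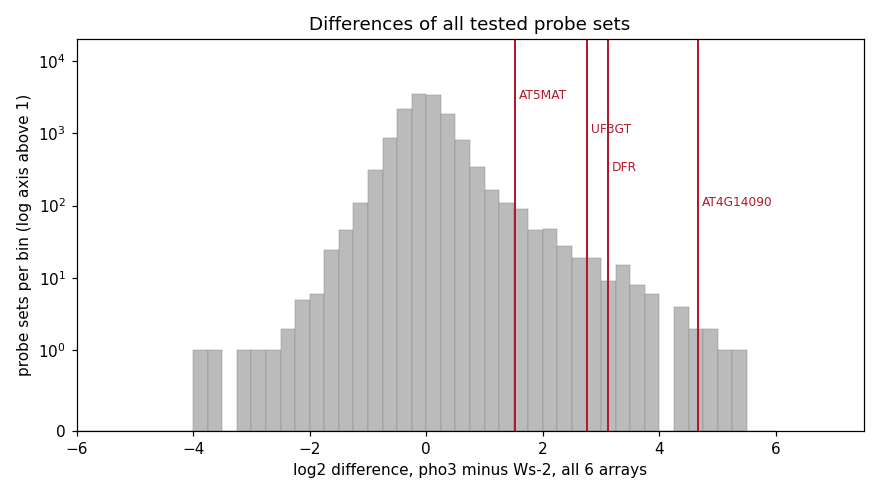
Number of the 13983 tested probe sets (vertical, log axis above 1) in bins of the log2 difference, pho3 minus Ws-2, over all 6 arrays (horizontal). Red lines mark the 4 enzymes, from AT5MAT at 1.53 to AT4G14090 at 4.66, on the upper side of the distribution; the place of AT4G14090 rests on Ws-2 signals under the 40th percentile.

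The outcome turned on 1 array. Without Ws-2 replicate 1, all 4 enzymes rose in pho3, where 4.61% of the tested probe sets were called higher. DFR rose by 4.69 on the log2 scale (SE 0.30, limma adjusted p = 0.00277) and UF3GT by 4.13 (SE 0.59, limma adjusted p = 0.0185). AT4G14090 rose by 7.01 (SE 0.83, limma adjusted p = 0.0114) and AT5MAT by 2.38 (SE 0.42, limma adjusted p = 0.0312). As ratios of geometric means of floored signals these were 25.8-fold for DFR, at least 15.4-fold for UF3GT, at least 18.8-fold for AT4G14090 and at least 2.63-fold for AT5MAT. Without any other single array, 0 of 4 passed, where 0 of all tested probe sets were called higher, and the differences stayed positive. All 4 also passed with limma's array weights (16% of probe sets called higher) and without both Ws-2 replicate 1 and pho3 replicate 3 (18.2%). These settings drop or down-weight the arrays that deviate from their labelled group, so their p-values describe the arrays that remain and are no independent support.

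**Figure D3:**
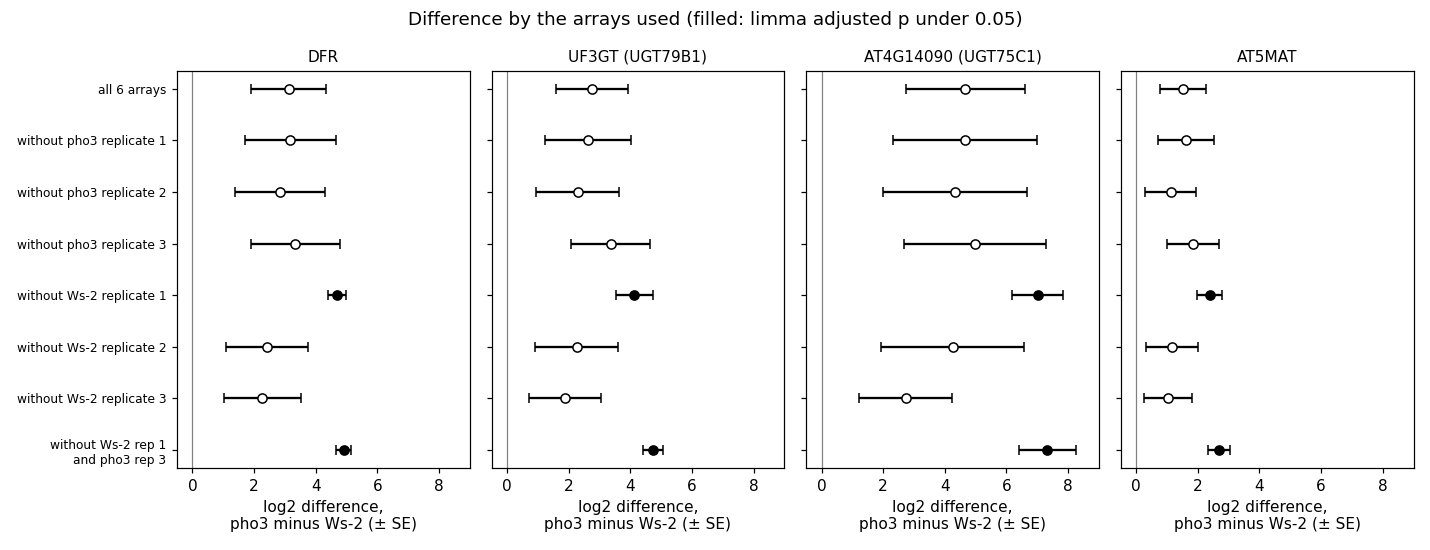
Log2 difference, pho3 minus Ws-2, with its standard error (horizontal), for each enzyme with all 6 arrays, with each array left out, and without both Ws-2 replicate 1 and pho3 replicate 3; filled points passed limma's adjusted p of 0.05. Points are filled only where Ws-2 replicate 1 is left out, and every point lies above 0.

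Array by array, the 4 steps were bright and dim on the same arrays, though by different amounts. Each was brightest on pho3 replicate 2, and the lowest pho3 value was always on pho3 replicate 3. Each was dimmer on Ws-2 replicates 2 and 3 than on the other 4 arrays; the order of those arrays cannot be read for AT4G14090 and AT5MAT, which were under the 40th percentile on both. The array labelled Ws-2 replicate 1 was the next brightest after pho3 replicate 2 for DFR, AT4G14090 and AT5MAT, while for UF3GT pho3 replicate 1 came between them. Set against the mean of the 3 pho3 arrays, it read 0.97 times that mean for DFR, 0.83 for UF3GT, 0.96 for AT4G14090 and 1.04 for AT5MAT.

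**Figure D4:**
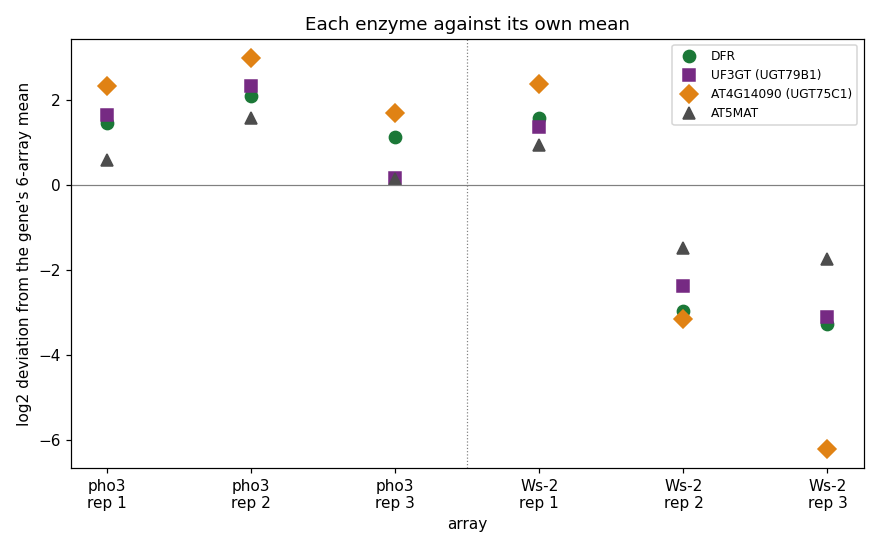
Log2 deviation of each enzyme from its own 6-array mean (vertical) on the 3 pho3 and the 3 Ws-2 arrays (horizontal). The 4 enzymes lie above 0 on pho3 replicates 1 to 3 and on the array labelled Ws-2 replicate 1, and below 0 on the other Ws-2 arrays; on pho3 replicate 3 UF3GT (0.17) and AT5MAT (0.13) lie near 0, and the lowest point, AT4G14090 on Ws-2 replicate 3, is under the 40th percentile.

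Within pho3 the steps were not equally even. Relative to pho3 replicate 2, pho3 replicate 3 had 50.8% of the DFR signal and 41.0% of the AT4G14090 signal, but 36.7% for AT5MAT and 22.5% for UF3GT. Between pho3 replicates 1 and 2 the enzymes were closer, since replicate 1 had 63.7%, 62.5% and 63.6% of the replicate 2 signal for DFR, UF3GT and AT4G14090, and 50.6% for AT5MAT. These are single arrays, so the differences between steps were not tested.

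The same comparison can be read as a position on a log2 scale of floored signals, where 0 is the mean of Ws-2 replicates 2 and 3 and 1 the mean of pho3 replicates 1 and 2. The array labelled Ws-2 replicate 1 lay at 0.96 for DFR, 0.94 for AT4G14090, 0.92 for AT5MAT and 0.86 for UF3GT. Over the 1088 probe sets called higher and at least 2-fold apart in those 4 arrays, its median position was 0.79, with quartiles of 0.68 and 0.89. On pho3 replicate 3, DFR lay at 0.87 and AT4G14090 at 0.79, above the 90th percentile of those probe sets (0.76). UF3GT at 0.60 and AT5MAT at 0.44 lay between their quartiles (0.41 and 0.65, with a median of 0.54). The 4 end arrays were chosen with the data known, so the positions are a description, with no test.

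The spread over the 6 arrays was wide for 3 of the steps. On floored signals, the brightest array exceeded the dimmest 41.8-fold for DFR, and at least 33.7-fold for UF3GT and 30.6-fold for AT4G14090. Of all tested probe sets, 0.0787% had a range as wide as that of DFR, 0.1% as wide as UF3GT and 0.122% as wide as AT4G14090. AT5MAT had a floored range of at least 4.80-fold, which 3.09% of the tested probe sets reached.

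One measure of RNA quality moved with the enzymes. The ratio of the 3-prime to the 5-prime probe set for actin, in the first of the array's control sets, was 4.75, 5.24 and 3.46 for pho3 replicates 1 to 3, against 4.23, 2.18 and 2.26 for Ws-2 replicates 1 to 3. It was thus high on the arrays where the enzymes were bright, the array labelled Ws-2 replicate 1 included. The second actin set did not share this pattern, with 1.84, 2.11 and 1.79 in pho3 and 1.84, 1.95 and 1.83 in Ws-2. The 4 ratios from GAPDH and ubiquitin lay between 1.08 and 1.80 on all arrays. The part of RNA quality in the enzymes' signals was not tested.

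Neighbouring steps of the flavonoid pathway were read from 9 lists of 53 genes. Of these, 6 had a named probe set and 4 were tested; the lists for phenylpropanoid entry, flavonoid transport, anthocyanin activators, flavonol activators and anthocyanin repressors had none. All 4 tested genes had a higher mean in pho3 and 0 passed limma's test over the 6 arrays (0% called higher); without Ws-2 replicate 1, 3 of 4 passed as higher (4.61% called higher).

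Upstream of DFR, the chalcone isomerase-like protein CHIL, which promotes flavonoid production, had 157, 256 and 186 in pho3, against 238, 7.03 and 3.89 in Ws-2. It thus followed the pattern of the 4 enzymes, except that pho3 replicate 1 was its lowest pho3 array. Its call without Ws-2 replicate 1 (limma adjusted p = 0.0027, at least 7.15-fold on floored signals) was made against 2 arrays under the 40th percentile. CHIL passed the filter on low values only through the arrays on which it was bright, so this call is no independent support. UGT78D2, the glucosyltransferase that supplies the glucoside on which UF3GT acts, had 390, 741 and 320 in pho3, against 428, 89.1 and 70.5 in Ws-2. Unlike UF3GT, AT4G14090 and AT5MAT, it was over the 40th percentile on all Ws-2 arrays. Its log2 difference was 1.70 (SE 0.69, limma adjusted p = 0.375), and without Ws-2 replicate 1 it rose by 2.51 (limma adjusted p = 0.0184).

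In the flavonol branch, which competes with DFR for its substrate, AT1G06000 (the rhamnosyltransferase UGT89C1) had 67.6, 95.1 and 38.2 in pho3, against 66.1, 10.8 and 2.07 in Ws-2. Its call without Ws-2 replicate 1 (limma adjusted p = 0.0406) was made against 2 arrays under the 40th percentile, with a floored ratio of at least 2.29-fold. It passed the filter on low values only through the arrays on which it was bright, and it did not pass the filter on the mean. The rhamnosyltransferase UGT78D1 had 70.3, 107 and 50.0 in pho3, against 68.5, 38.0 and 12.6 in Ws-2, and was the tested gene that did not pass without Ws-2 replicate 1 (limma adjusted p = 0.0871). Both again read highest on pho3 replicate 2. The arabinosyltransferase UGT78D3 (0.54 to 2.06) and BAN, the anthocyanidin reductase of the proanthocyanidin branch (1.41 to 4.47), stayed under the 40th percentile on all 6 arrays and were not tested.

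**Figure D5:**
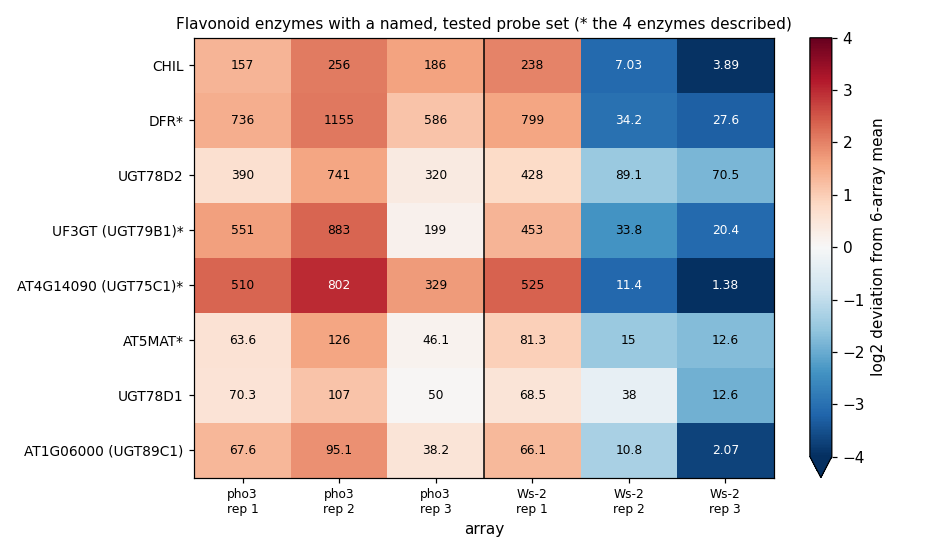
Signals (printed) and log2 deviations from each gene's 6-array mean (colour, cut at -4) of the 8 flavonoid genes with a named, tested probe set, for the 3 pho3 arrays and the 3 Ws-2 arrays. Stars mark the 4 enzymes described. Each row is higher over pho3 and the array labelled Ws-2 replicate 1 than on the other Ws-2 arrays, where signals are as low as 1.38. On pho3 replicate 3 the deviations of UGT78D1 (0.06), AT5MAT (0.13) and UF3GT (0.17) are near 0.

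Genes with a like pattern were found by the root mean square difference of log2 signals over the 6 arrays, each gene centred on its own mean, among 7611 other named and tested probe sets. The centred signals were not scaled, so genes that range by different amounts lie apart even if bright and dim on the same arrays. The closest to AT5MAT of all was UGT78D2, at 0.12. It was followed by AT5G62150, the sugar transporters SWEET13 and SWEET4, and AT1G63880, at 0.22 to 0.25. The 5 closest to DFR outside the 4 enzymes were AT5G42250, AT5G50360, AT5G26731, AT1G80960 and APL4, a large subunit of the starch synthesis enzyme ADP-glucose pyrophosphorylase, at 0.23 to 0.26. The 5 closest to UF3GT were the glycosyltransferases UGT73C1 and UGT73B5 with AT3G01830, AT3G13610 and AT5G39520, at 0.22 to 0.37. For AT4G14090 the distances were larger, with AT5G03350 first at 0.63, then AT5G52760, AT2G23910, AT1G78410 and AT1G26420 up to 0.92. These distances rest on AT4G14090 signals of 11.4 and 1.38 on Ws-2 replicates 2 and 3, under the 40th percentile. With signals floored there, its closest gene outside the 4 enzymes was APL4, at 0.29.

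Among the 4 enzymes themselves, DFR and UF3GT were the closest pair, 0.48 apart, which made DFR the 20th closest of 7611 to UF3GT. AT4G14090 took place 158 for DFR and 416 for UF3GT, while seen from AT4G14090 these took places 18 and 33. Seen from AT5MAT, UF3GT took place 619, DFR 1774 and AT4G14090 7597. In the other direction AT5MAT took place 94 for both DFR and UF3GT, and 112 for AT4G14090. Many of these places depended on dim values on Ws-2 replicates 2 and 3 and, for some neighbours, on pho3 replicate 3. On signals floored at the 40th percentile, a setting chosen after the values were seen, only 1 of the 5 genes closest to each of DFR, UF3GT and AT4G14090 stayed the same (APL4, AT5G39520 and AT5G03350) and 0 of those closest to AT5MAT, where UGT78D2 took place 597. On that scale DFR was the closest of all 7611 to AT4G14090, at 0.24, and AT4G14090 took place 3 for both DFR and UF3GT. The floored pattern of AT5MAT was over 1.2 away from each of the other enzymes, with 1.54 to DFR, 1.32 to AT4G14090 and 1.22 to UF3GT. Seen from AT5MAT these took places 7555, 7411 and 7242 of 7611. In the other direction AT5MAT took place 132 for DFR, 127 for AT4G14090 and 121 for UF3GT. AT5MAT had the narrowest floored range of the 4, so these distances reflect that range as well as the order of arrays.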

How the data were processed

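RNA of rosette leaves was measured on 6 Affymetrix arrays, 3 per line, grouped by their titles. Each value in the deposited table is a linear signal intensity of 1 probe set on 1 array. The submitters' processing notes name MAS5, with no version, and the trimmed mean was 100.0 on every array. Detection calls were not used. Precision is limited by the number of arrays.

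Values were tested as log2 signals, without a pseudocount or further scaling. Of 22810 probe sets, 64 controls were left out, and 13983 were tested: those that reached the 40th percentile of the array on 3 or more arrays. The test was limma 3.58.1 under R 4.3.3 (a two-sided test from a linear model per probe set, its variance moderated along a trend). Its p-values were adjusted by Benjamini-Hochberg across the whole table, with a threshold of 0.05. The code was tested on simulated data with independent noise and no outlying array, so that test does not bear on Ws-2 replicate 1. The platform annotation gave 13513 probe sets 1 gene each, and 13436 of them matched the RefSeq table of TAIR10.1 through gene numbers. No coordinates or sequences are given. Summaries and figures were made in python 3.11.15.

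The genes named are the 4 enzymes, every listed gene with a probe set of its own, and the 5 genes most like each enzyme in pattern. The members and the lists were chosen with earlier results of these data known. The alternatives were other normalizations, a pseudocount of 16, a floor at the 40th percentile, other filters and variance priors, array weights, a block on the replicate number, and fits that leave out arrays.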

Additional observations from a re-analysis of the deposited data

How the results depend on the processing

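With 3 arrays a group and 1 Ws-2 array at pho3 levels, the calls rest on which arrays are used; signals under the 40th percentile have no reliable order. All 4 enzymes stayed higher in pho3 under every alternative in which they were tested; AT5MAT did not pass the 60th percentile filter. None passed with quantile normalization, median centring, a pseudocount of 16, the floor, other filters or other variance priors. In each of these settings 0 probe sets of the whole table were called in either direction. The floor gave AT4G14090 2.81 and AT5MAT 0.87, against 4.66 and 1.53 as deposited. With array weights, lowest for Ws-2 replicate 1 (0.37) and pho3 replicate 3 (0.44), 2237 probe sets were higher and 2026 lower, and DFR differed by 4.28, UF3GT by 4.03, AT4G14090 by 6.18 and AT5MAT by 2.33 (limma adjusted p = 0.0259 to 0.0261). Without both Ws-2 replicate 1 and pho3 replicate 3, 2547 were higher and 2305 lower, with 4.91, 4.73, 7.33 and 2.70 in the same order of genes. Leaving out 1 array gave 0 to 644 probe sets higher and 0 to 117 lower, and differences of 2.26 to 4.69 for DFR, 1.89 to 4.13 for UF3GT, 2.73 to 7.01 for AT4G14090 and 1.04 to 2.38 for AT5MAT; calls were made only without Ws-2 replicate 1. Adjusted p over the alternatives ran from 0.000699 to 0.733 for DFR, 0.000985 to 0.733 for UF3GT, 0.00337 to 0.733 for AT4G14090 and 0.00381 to 0.733 for AT5MAT. The replicate number as a block left 0 probe sets called and the lowest adjusted p of the 4 at 0.192 (UF3GT). The labels do not say whether arrays with the same number were paired. Their deviations from group means correlated at 0.39, -0.27 and 0.43 for replicates 1, 2 and 3. Arrays with different numbers reached 0.52 (pho3 replicate 2 with Ws-2 replicate 1) and -0.62 (pho3 replicate 3 with Ws-2 replicate 1). These correlations cannot decide on a pairing, since a single outlying array such as Ws-2 replicate 1 shapes them.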
